A study of Mus musculus with 4 samples.

Results

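The 10 genes described here encode the core of MHC class I antigen presentation and the immunoproteasome: H2-K1, H2-D1, B2m, Tap1, Tap2, Tapbp, Psmb8, Psmb9, Psmb10 and Nlrc5. They were taken by symbol, and all 10 were found among 10663 named genes of a table on regulatory T cells (Treg) and among 23259 of a table on transduced CD4 T cells. The tables come from RNA sequencing of 4 mouse libraries, which form 2 experiments of 2 groups, with a single library in each group. The first set Treg from the spleen of mice that drank 3% dextran sulfate sodium (DSS) for 7 days against Treg of untreated mice. Both groups were Balb/c mice with a human CD2 reporter at Foxp3, and the sort was on that reporter. DSS damages the lining of the colon. The second set naive CD4 T cells transduced with a vector for the SoxC family transcription factor Sox12 against the same cells with a mock vector, all from wild-type C57BL6 mice. The sources used here give neither ages nor the number of animals per library.

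Class I molecules show short peptides from inside the cell to CD8 T cells and NK cells. A polymorphic heavy chain pairs with beta 2-microglobulin. The peptides are cut by the proteasome, carried into the endoplasmic reticulum by the TAP transporter and loaded with the help of tapasin. In lymphocytes and under interferon, the catalytic subunits Psmb5, Psmb6 and Psmb7 of the constitutive proteasome are replaced by Psmb8, Psmb9 and Psmb10, which form the immunoproteasome. Nlrc5 is the transactivator of class I genes and acts on an upstream module, named SXY, through RFX, CREB/ATF and NF-Y proteins.

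These promoter stretches are shown because the module that Nlrc5 acts on is known to lie in the first 3, and because the last serves a pair of genes that start on either side of it. They come from RefSeq on GRCm38.p6, the C57BL/6J sequence, in which 8 of the 10 genes were matched to windows of 250 bases before to 50 after an annotated start (9 windows, 2 of them for H2-K1), all but Tap2 and Nlrc5. Each stretch lies upstream of or across an annotated start, and capitals mark matches on either strand to TGACG (the core of the site that CREB/ATF proteins bind), ATTGG (the CCAAT box of NF-Y), and GAAGTGAAA or a GAAA followed by any 2 bases and another GAAA (forms of the interferon-stimulated response element, ISRE). The H2-K1 stretch is chr17:34000332-34000481 on the minus strand, the H2-D1 stretch chr17:35262899-35263048 on the plus strand, and the B2m stretch chr2:122147487-122147686 on the plus strand. The last stretch, chr17:34187331-34187555 on the plus strand, is the 225 bases between the starts of Psmb9, which reads leftward from it, and Tap1, which reads rightward.
H2-K1: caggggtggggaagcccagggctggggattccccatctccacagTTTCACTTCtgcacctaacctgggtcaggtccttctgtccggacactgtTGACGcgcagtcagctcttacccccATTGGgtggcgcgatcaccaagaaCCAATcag
H2-D1: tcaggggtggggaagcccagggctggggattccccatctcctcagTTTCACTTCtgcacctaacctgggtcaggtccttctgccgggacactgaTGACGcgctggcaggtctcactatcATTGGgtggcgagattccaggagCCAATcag
B2m: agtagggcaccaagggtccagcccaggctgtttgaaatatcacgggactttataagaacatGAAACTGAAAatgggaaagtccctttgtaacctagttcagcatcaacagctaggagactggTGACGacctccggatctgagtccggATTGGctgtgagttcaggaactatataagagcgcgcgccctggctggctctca
Psmb9 to Tap1: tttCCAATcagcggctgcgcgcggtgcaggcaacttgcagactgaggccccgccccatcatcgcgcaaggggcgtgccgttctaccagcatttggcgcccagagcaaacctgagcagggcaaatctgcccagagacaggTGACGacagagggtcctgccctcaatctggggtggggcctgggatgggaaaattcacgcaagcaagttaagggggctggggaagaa

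The H2-K1 and H2-D1 stretches carried the same elements in the same order, and 134 of 150 bases (89.3%) were identical in a global alignment. In both, and in B2m, TGACG was followed by exactly 20 bases and then ATTGG. That spaced pair was found in 31 of 32851 windows (0.0944%), which belong to 27 genes, and 3 of these genes are described here. The only other gene named H2 among the 27 was H2-M3, a class I gene that presents formylated peptides. Alone, TGACG was found in the windows of 5 of the 8 genes and in 20.8% of all windows, and ATTGG in 6 of 8 and in 37.4%. GAAGTGAAA was found in H2-K1 and H2-D1 and in 0.505% of all windows. The spaced GAAA pair was found in B2m and in 3.44%, TTCNNNGAA (the gamma-activated site) in Psmb8 and in 8.30%, and the NF-kB type site (GGG, any 5 bases, CC, not in capitals) in 5 of 8 and in 50.8%. The window of Psmb10 held none of these. GAAGTGAAA, TGACG and the spaced pair were searched after the windows had been read, matches can overlap, and a match is a description of these letters only.

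**Figure D1:**
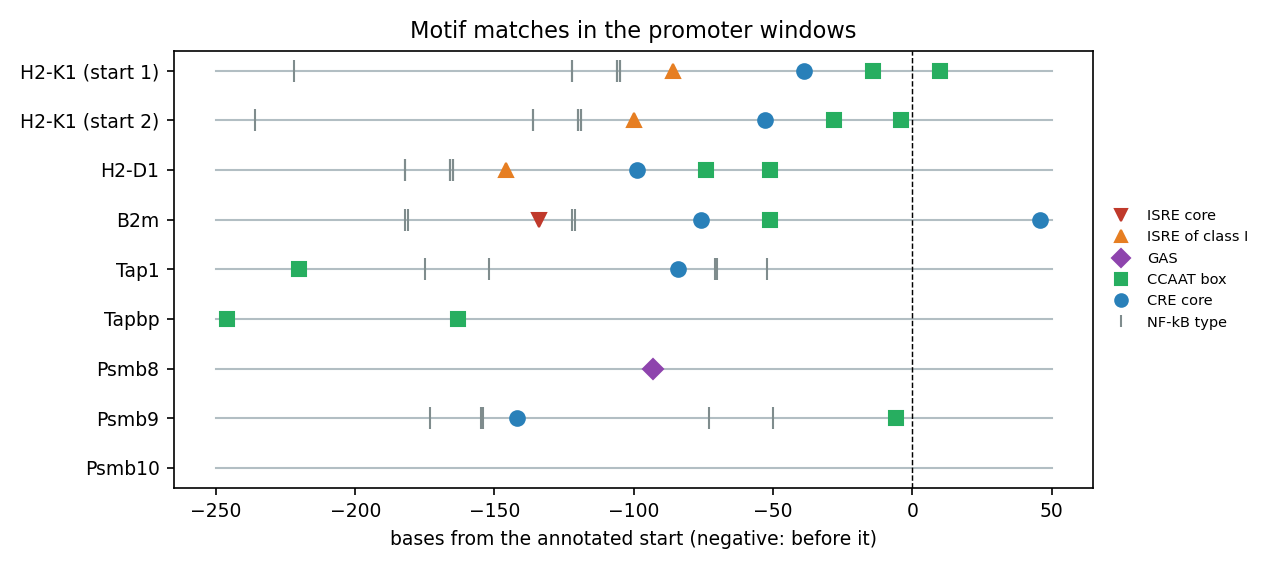
Motif matches in the 9 RefSeq promoter windows of 8 genes, by distance of the match's centre from the annotated start (x axis, bases; the dashed line is the start). CRE core stands for TGACG, and H2-K1, H2-D1 and B2m share a TGACG followed by a CCAAT box.

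All values are FPKM, fragments scaled by transcript length and by the size of the library, which can be compared between genes within a table. A change is the difference of log2(FPKM + 1), DSS minus untreated or Sox12 vector minus mock vector, taken only within a table. Without replicates no test was possible, no interval covers differences between preparations or animals, and changes are set beside those of all genes that averaged 1 FPKM or more (10545 in the Treg table, 10822 in the vector table). All 10 genes exceeded that level in every library. In the vector libraries their values rested on about 1824 to 79879 fragments, a counting error of 0.354% to 2.34%, estimated from low values and the length of the longest coding transcript in GENCODE vM21. The depth of the Treg libraries is unknown. The Treg labels fit the markers, with Foxp3 at 84.9 FPKM in DSS Treg and 88.25 FPKM in untreated Treg, and the T cell receptor gene Cd3e at 472.5 FPKM in DSS Treg and 468 FPKM in untreated Treg. In transduced cells the T cell gene Cd3g had 280.5 FPKM with the Sox12 vector and 287.5 FPKM with the mock vector, and Cd5 had 81.7 FPKM with the Sox12 vector and 189 FPKM with the mock vector. Of the T cell markers 7 of 8 were lower with the Sox12 vector, against 51.1% of all genes. Foxp3 had 127 FPKM with the Sox12 vector and 20.85 FPKM with the mock vector, but 6 of 8 Treg markers were lower, among them Nrp1 with 5.94 FPKM with the Sox12 vector and 23.6 FPKM with the mock vector. In bulk RNA of this kind, fewer expressing cells and less RNA per cell cannot be told apart.

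The heavy chains and B2m were among the most abundant transcripts of every library. In the Treg table the order was B2m, H2-D1, H2-K1, Psmb8 and Tapbp in both libraries. In the vector table it was B2m, H2-K1, H2-D1, Psmb8 and Tapbp in both libraries. Nlrc5 and Psmb10 held the last 2 places in all 4. Between these ends, Tap1, Tap2 and Psmb9 lay close together, from 99.7 to 112 FPKM in DSS Treg, from 113 to 135 FPKM in untreated Treg, from 53.6 to 62.6 FPKM with the Sox12 vector and from 74.9 to 84.5 FPKM with the mock vector. With no replicate, the order of those neighbours cannot be told from the spread of libraries.

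**Figure D2:**
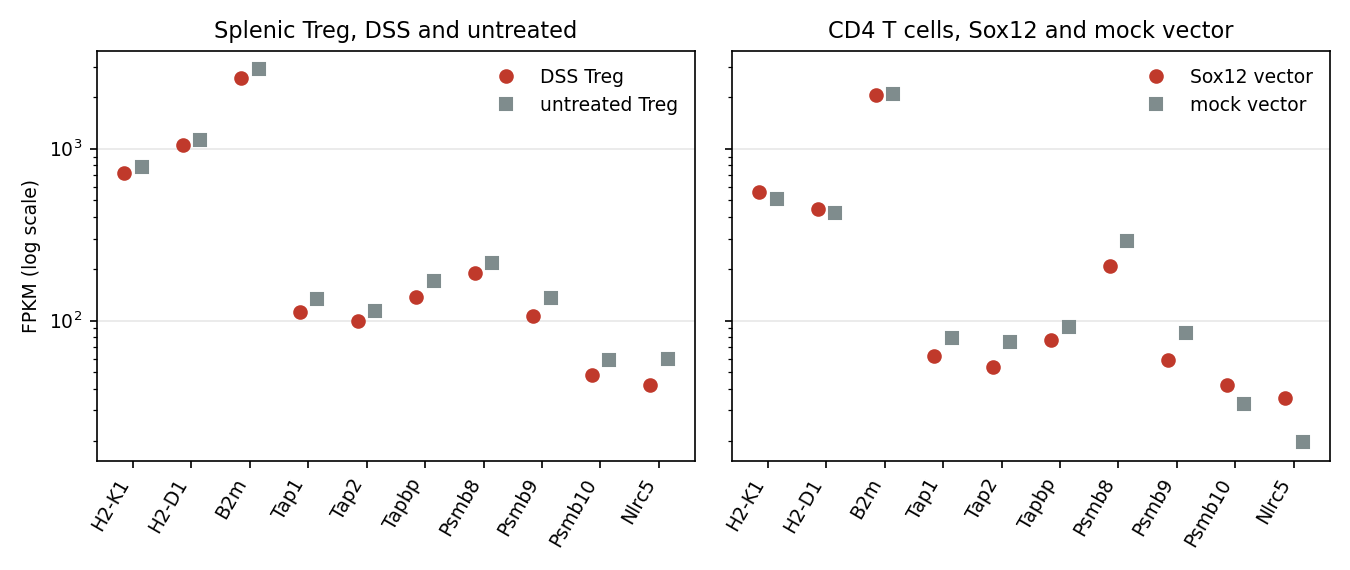
FPKM (y axis, log scale) of the 10 genes in DSS and untreated Treg (left) and in CD4 T cells with the Sox12 or mock vector (right), 1 library per point. All 10 points of DSS Treg lie below those of untreated Treg, while with the Sox12 vector 4 lie above and 6 below those of the mock vector.

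In DSS Treg every gene of the group was lower than in untreated Treg, by 6.26% for H2-D1 to 28.9% for Nlrc5. The median change of the 10 genes was -0.22, against 0.05 for all genes, and 10 of 10 were below 0, against 33.9% of all genes, and none above 0, against 66.1%. Genes lower by at least 0.3 on the log2 scale numbered 3 of 10 (Nlrc5, Psmb9 and Tapbp), against 2.19% of all genes, and 5 of 10 when the median change of all genes was set to 0, against 350 of 10545 genes under that scaling. None was higher by at least 0.3, against 5.24% of all genes, and none differed by 1 or more in either direction, against 0.266%. The 10 genes were below 0 under each of the 3 other scalings and both other pseudocounts tried.

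Nlrc5 had 42.4 FPKM in DSS Treg and 59.6 FPKM in untreated Treg. Its change of -0.48 was the most negative of the 10 and ranked 79 from the lowest among the 10545 genes. The heavy chains and B2m differed less. H2-K1 had 726 FPKM in DSS Treg and 786 FPKM in untreated Treg, a change of -0.11. H2-D1 had 1053 FPKM in DSS Treg and 1124 FPKM in untreated Treg, a change of -0.09. B2m, the light chain that all class I molecules share, had 2581 FPKM in DSS Treg and 2895 FPKM in untreated Treg, a change of -0.17. B2m stood at 1.45 times the summed heavy chains in DSS Treg and at 1.52 times in untreated Treg.

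The peptide supply genes lay between these. Tap1 and Tap2 encode the subunits of the TAP transporter. Tap1 had 112 FPKM in DSS Treg and 133 FPKM in untreated Treg (change -0.25), and Tap2 had 99.7 FPKM in DSS Treg and 113 FPKM in untreated Treg (change -0.18). Tapbp, which encodes tapasin, the bridge between TAP and empty class I, had 136 FPKM in DSS Treg and 171 FPKM in untreated Treg (change -0.32). Tapasin thus differed more than either subunit of the transporter it bridges to.

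Among the immunoproteasome subunits, Psmb8, the chymotrypsin-like subunit, had 188 FPKM in DSS Treg and 216 FPKM in untreated Treg (change -0.20). Psmb9 had 107 FPKM in DSS Treg and 135 FPKM in untreated Treg (change -0.33). Psmb10 had 48.2 FPKM in DSS Treg and 58.95 FPKM in untreated Treg (change -0.29). The constitutive counterparts differed less, by at most 0.06 in size: Psmb5 had 33.4 FPKM in DSS Treg and 35.0 FPKM in untreated Treg, Psmb6 37.9 FPKM in DSS Treg and 37.0 FPKM in untreated Treg, and Psmb7 70.05 FPKM in DSS Treg and 70.5 FPKM in untreated Treg. The 3 immunoproteasome subunits made up 70.85% of the summed FPKM of all 6 catalytic subunits in DSS Treg and 74.2% in untreated Treg. By pair, Psmb8 made up 84.9% of Psmb8 and Psmb5 in DSS Treg and 86.1% in untreated Treg. Psmb9 made up 73.85% of Psmb9 and Psmb6 in DSS Treg and 78.5% in untreated Treg. Psmb10 made up 40.75% of Psmb10 and Psmb7 in DSS Treg and 45.5% in untreated Treg. The share was lower in DSS Treg in each of the 3 pairs.

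**Figure D3:**
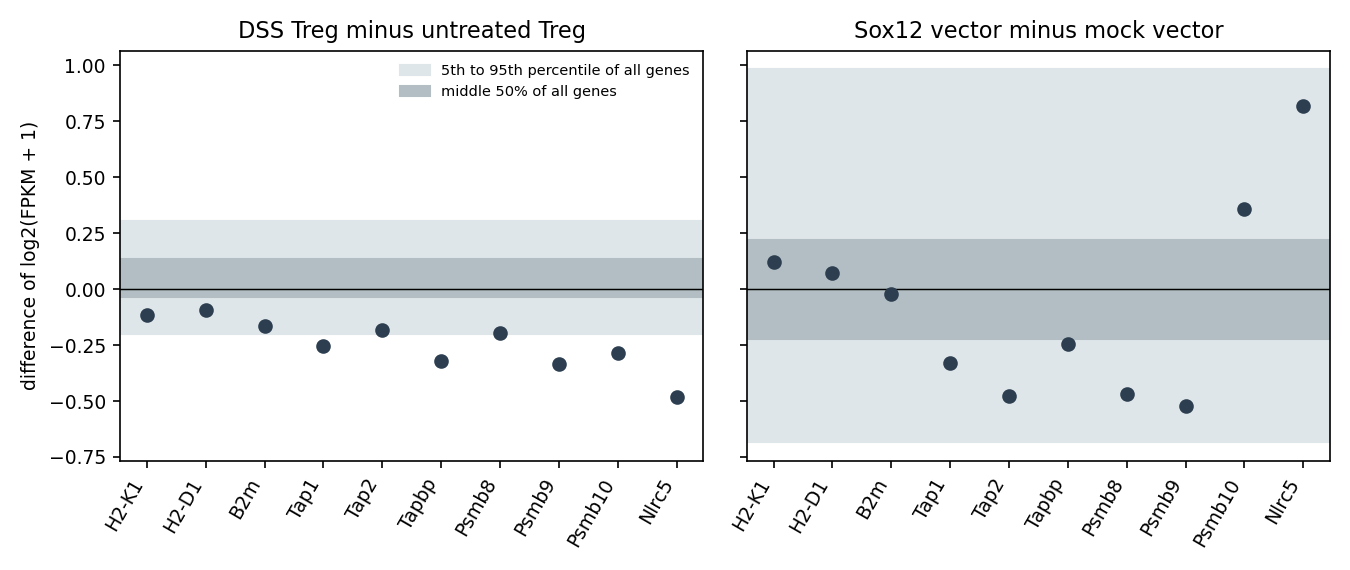
Change of each gene (y axis, difference of log2(FPKM + 1)), with bands for the 5th to 95th percentile and the middle 50% of all genes. In DSS Treg all 10 genes lie below 0, with Nlrc5 lowest, and with the Sox12 vector Nlrc5 is highest and Psmb9 lowest. With the Sox12 vector all 10 lie within the 5th to 95th percentile band.

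With the Sox12 vector the group split. Nlrc5 and Psmb10 were higher than with the mock vector, the TAP genes, tapasin, Psmb8 and Psmb9 were lower, and the heavy chains and B2m differed little. The changes ran from -0.52 to 0.82 with a median of -0.13, against -0.01 for all genes. All 10 lay within the 5th to 95th percentile of all genes, which ran from -0.68 to 0.98. That median was -0.29 without H2-K1 and H2-D1, and it was -0.076 with totals made equal without the 20 highest genes. Below 0 lay 6 of 10 genes, against 51.1% of all genes, and above 0 lay 4 of 10, against 48.9%. Of the 10, 4 were lower by at least 0.3, against 18.4% of all genes, and 3 with totals made equal without the 20 highest genes, where Tap1 was at -0.27, and 2 were higher by at least 0.3, against 20%. None differed by 1 or more, against 6.76%. The shares below 0, above 0 and higher by at least 0.3 were near those of all genes.

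Nlrc5 had 35.3 FPKM with the Sox12 vector and 19.6 FPKM with the mock vector, a ratio of 1.80 with a counting interval of 1.75 to 1.86 (95%, exact binomial, counting error only). Of all genes, 93.35% had a lower change. Psmb10 had 42.0 FPKM with the Sox12 vector and 32.5 FPKM with the mock vector, a ratio of 1.29 with an interval of 1.21 to 1.37. Nlrc5 and Psmb10 were the only 2 of the group higher by at least 0.3. In the RefSeq table for GRCm38.p6 both lie on chromosome 8, and both were lower in DSS Treg. Any part of their position in these changes was not tested.

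H2-K1 had 557 FPKM with the Sox12 vector and 511 FPKM with the mock vector, a ratio of 1.09. H2-D1 had 445 FPKM with the Sox12 vector and 423 FPKM with the mock vector, a ratio of 1.05. B2m had 2058 FPKM with the Sox12 vector and 2087 FPKM with the mock vector, a ratio of 0.986. These were the 3 smallest changes of the group in size. With 1 library per group, no change of any size in either experiment can be set apart from differences between preparations. B2m turned to a change of 0.038 when the totals were made equal without the 20 highest genes. B2m stood at 2.05 times the summed heavy chains with the Sox12 vector and at 2.23 times with the mock vector.

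Tap1 had 62.6 FPKM with the Sox12 vector and 78.9 FPKM with the mock vector, a ratio of 0.793 with an interval of 0.770 to 0.816. Psmb9, which starts on the other side of the 225 bases shown above, had 58.6 FPKM with the Sox12 vector and 84.5 FPKM with the mock vector, a ratio of 0.694 with an interval of 0.664 to 0.724. These intervals, which cover counting error only, did not overlap. The levels of the pair were close in each library but changed order, with Tap1 at 1.07 times Psmb9 with the Sox12 vector and 0.934 times with the mock vector. In Treg the same ratio was 1.045 with DSS and 0.988 untreated. Tap2 had 53.6 FPKM with the Sox12 vector and 74.9 FPKM with the mock vector, a ratio of 0.716. Psmb8 had 209 FPKM with the Sox12 vector and 289.5 FPKM with the mock vector, a ratio of 0.722. Psmb9, Tap1, Psmb8 and Tap2 follow each other in this order on chromosome 17 among the 10 genes, between H2-K1 and H2-D1, and were the 4 genes lower by at least 0.3, apart from Tap1 under the scaling named above. Tapbp, on the same chromosome beyond H2-K1, had 77.1 FPKM with the Sox12 vector and 91.7 FPKM with the mock vector, a ratio of 0.841. Any part of gene order in these changes was not tested.

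The catalytic subunits therefore did not move as a set. Psmb8 was 3.57 times Psmb9 with the Sox12 vector and 3.43 times with the mock vector, a similar ratio. In Treg the same ratio was 1.76 with DSS and 1.6 untreated. Psmb8 was 4.98 times Psmb10 with the Sox12 vector and 8.91 times with the mock vector. The constitutive subunits were slightly higher with the Sox12 vector: Psmb5 had 104 FPKM with it and 99.85 FPKM with the mock vector, Psmb6 102 FPKM with it and 95.4 FPKM with the mock vector, and Psmb7 190 FPKM with it and 172 FPKM with the mock vector. The immunoproteasome subunits made up 43.9% of the summed FPKM of all 6 with the Sox12 vector and 52.5% with the mock vector, a difference of -8.66 percentage points that was -5.29 as the mean of the 3 pairs. Psmb8 made up 66.75% of its pair with the Sox12 vector and 74.35% with the mock vector. Psmb9 made up 36.5% of its pair with the Sox12 vector and 47.0% with the mock vector. Psmb10 made up 18.1% of its pair with the Sox12 vector and 15.9% with the mock vector, the 1 pair in which the immunoproteasome share was higher.

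**Figure D4:**
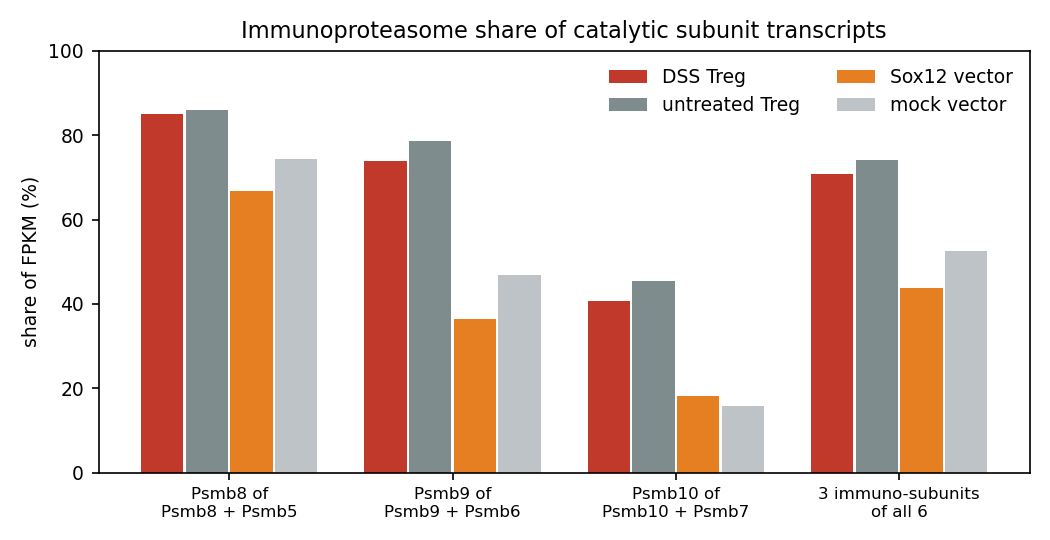
Share of FPKM (y axis, %) held by each immunoproteasome subunit of its pair with the constitutive counterpart, and by the 3 together of all 6, in each of the 4 libraries. DSS Treg lies below untreated Treg in every pair, and the Sox12 vector lies below the mock vector for Psmb8 and Psmb9 and above it for Psmb10.

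Other proteasome genes showed which parts of the particle shared these differences. PA28, the activator that interferon-gamma induces, is made of Psme1 and Psme2. Psme1 had 159 FPKM in DSS Treg and 197 FPKM in untreated Treg (change -0.31), and 175 FPKM with the Sox12 vector and 230 FPKM with the mock vector (change -0.39). Psme2, named after its values were seen, had 55.7 FPKM in DSS Treg and 68.2 FPKM in untreated Treg (change -0.29), and 59.9 FPKM with the Sox12 vector and 75.2 FPKM with the mock vector (change -0.32). Both PA28 genes were thus lower in DSS Treg and with the Sox12 vector, by about as much as Psmb9 in DSS Treg and as Tap1 with the Sox12 vector. The nuclear activator Psme3, in the same list, had 67.9 FPKM in DSS Treg and 62.05 FPKM in untreated Treg, and 134 FPKM with the Sox12 vector and 124.5 FPKM with the mock vector. Psme4, which encodes the activator PA200 and was named after its values were seen, had 17.15 FPKM in DSS Treg and 15.3 FPKM in untreated Treg (change 0.16), and 26.1 FPKM with the Sox12 vector and 15.4 FPKM with the mock vector (change 0.72). The other 11 subunits of the 20S core had a median change of 0.06 in DSS Treg (9 higher, 2 lower) and -0.02 with the Sox12 vector (3 higher, 8 lower), and with the Sox12 vector 6 were higher and 5 lower with equal totals without the 20 highest genes. The 21 genes of the 19S regulatory particle had medians of 0.07 in DSS Treg and 0.04 with the Sox12 vector. None of the 20S and 19S genes of these lists was past 0.3 in either experiment. Of 5 assembly genes, 4 were lower in DSS Treg (median -0.06) and 3 with the Sox12 vector (median -0.09). Of all genes, 33.9% were lower in DSS Treg and 51.1% with the Sox12 vector. Pomp, the proteasome maturation protein, had 172 FPKM with the Sox12 vector and 183 FPKM with the mock vector, and the chaperone gene Psmg1 had 27.4 FPKM with the Sox12 vector and 39.8 FPKM with the mock vector (change -0.52).

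The chaperones and peptidases of the loading pathway differed little. Of 13 genes, 8 were higher and 5 lower in DSS Treg (median 0.02), where 66.1% of all genes were higher. With the Sox12 vector 5 were higher and 8 lower (median -0.03), where 48.9% of all genes were higher. The direction flips under other scalings, to 2 higher and 11 lower in DSS Treg with the median change of all genes set to 0, and to 10 higher and 3 lower with the Sox12 vector with equal totals without the 20 highest genes. Calreticulin (Calr) had 219 FPKM in DSS Treg and 249 FPKM in untreated Treg, and 438 FPKM with the Sox12 vector and 454 FPKM with the mock vector. Pdia3, its partner oxidoreductase, had 183 FPKM in DSS Treg and 195 FPKM in untreated Treg, and 273.5 FPKM with the Sox12 vector and 281 FPKM with the mock vector. The 1 gene past 0.3 in either direction was Lnpep, an aminopeptidase of endosomal cross-presentation, named after its values were seen, with 23.4 FPKM with the Sox12 vector and 34.45 FPKM with the mock vector.

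Other class I and class I-like genes followed the group in DSS Treg and departed from it with the Sox12 vector. In DSS Treg 17 of 21 were lower (median -0.14), against 33.9% of all genes. These included H2-Q6, with 377 FPKM in DSS Treg and 417 FPKM in untreated Treg, and H2-T23, which encodes Qa-1, with 366 FPKM in DSS Treg and 414 FPKM in untreated Treg. With the Sox12 vector 15 of 20 were higher (median 0.29), against 48.9% of all genes. Of the 20, 10 were higher by at least 0.3, against 20% of all genes, and 4 by at least 1. Of all genes, 6.76% differed by 1 or more in either direction. H2-Q7, a Qa-2 gene, had 104.5 FPKM with the Sox12 vector and 44.0 FPKM with the mock vector. H2-Q4 had 94.35 FPKM with the Sox12 vector and 57.6 FPKM with the mock vector, and H2-Q6 had 72.7 FPKM with the Sox12 vector and 34.6 FPKM with the mock vector. Cd1d1, which presents lipids to NKT cells, had 12.65 FPKM with the Sox12 vector and 1.38 FPKM with the mock vector, and its near copy Cd1d2 had 4.39 FPKM with the Sox12 vector and 0.427 FPKM with the mock vector. Lower with the Sox12 vector were H2-T23, with 74.8 FPKM against 100.9 FPKM with the mock vector, and H2-T24, with 5.79 FPKM against 13.7 FPKM with the mock vector. H2-M3, the other H2 gene with the spaced TGACG and ATTGG pair, had 24.5 FPKM in DSS Treg and 26.6 FPKM in untreated Treg (change -0.11), and 8.19 FPKM with the Sox12 vector and 11.1 FPKM with the mock vector (change -0.40). The class I genes were therefore not uniform. Class I genes are near copies of each other, and so are Cd1d1 and Cd1d2, so the split of fragments among them is uncertain. Balb/c mice carry the d haplotype of this locus, whereas the reference sequence is that of the b haplotype of C57BL/6, and the part of that mismatch in the Treg values of H2-K1, H2-D1 and the H2-Q genes was not tested.

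Regulators of the pathway were read from lists. Against 33.9% of all genes, in DSS Treg 9 of 15 interferon signalling genes were lower (median -0.11). Among them were Stat2, with 18.75 FPKM in DSS Treg and 24.9 FPKM in untreated Treg, and Irf9, with 44.2 FPKM in DSS Treg and 55.4 FPKM in untreated Treg. Both act in signalling from the type I interferon receptor, and both were named after their values were seen. Irf1, an interferon-induced factor that binds the promoters of class I genes, Tap1 and Psmb9 and was also named after its values were seen, had 85.2 FPKM in DSS Treg and 105 FPKM in untreated Treg (change -0.29). Of the interferon-stimulated genes 26 of 26 were lower, against 33.9% of all genes, and 25 were lower by at least 0.3, against 2.19%. Their median was -0.62. Igtp, an interferon-inducible GTPase, had 104.5 FPKM in DSS Treg and 148 FPKM in untreated Treg. The class I and immunoproteasome genes thus had a smaller median change (-0.22) than that list, in the same direction.

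With the Sox12 vector the interferon genes split too. Irf1 had 46.0 FPKM with the Sox12 vector and 15.7 FPKM with the mock vector (change 1.49), and interferon-gamma (Ifng) had 191 FPKM with the Sox12 vector and 41.3 FPKM with the mock vector (change 2.18). Against 51.1% of all genes, 16 of 25 interferon-stimulated genes were lower, 9 of them by at least 1. Against 48.9%, 9 were higher, 4 of them by at least 1, while 6.76% of all genes differed by that much in either direction. Lower were Ifi27l2a, with 94.65 FPKM with the Sox12 vector and 736 FPKM with the mock vector, Oas3, with 2.52 FPKM with the Sox12 vector and 20.2 FPKM with the mock vector, and Irf7, with 3.73 FPKM with the Sox12 vector and 17.6 FPKM with the mock vector. The 4 higher ones, named after their values were seen, were the GTPase genes Gbp2, Gbp3, Gbp4 and Iigp1, of which Gbp2 had 65.2 FPKM with the Sox12 vector and 22.9 FPKM with the mock vector. Of the interferon-induced genes described above, Tap1 and Psmb9 lay on the lower side and Nlrc5 and Psmb10 on the higher side. Of the proteins that Nlrc5 works with, Nfya, a subunit of NF-Y, had 32.3 FPKM with the Sox12 vector and 21.5 FPKM with the mock vector. Atf1, of the CREB/ATF family, had 28.55 FPKM with the Sox12 vector and 35.3 FPKM with the mock vector, and Rfxap, of the RFX complex and named after its values were seen, had 8.45 FPKM with the Sox12 vector and 11.1 FPKM with the mock vector. Other members of both went the other way. Creb1, of the CREB/ATF family, had 19.2 FPKM with the Sox12 vector and 14.4 FPKM with the mock vector. Rfxank, of the RFX complex, had 6.54 FPKM with the Sox12 vector and 5.01 FPKM with the mock vector. Both were also named after their values were seen. The 8 measured RFX, CREB/ATF and NF-Y genes had medians of 0.03 in DSS Treg and 0.08 with the Sox12 vector (4 higher, 4 lower), and in DSS Treg the median was -0.02 with the median change set to 0.

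**Figure D5:**
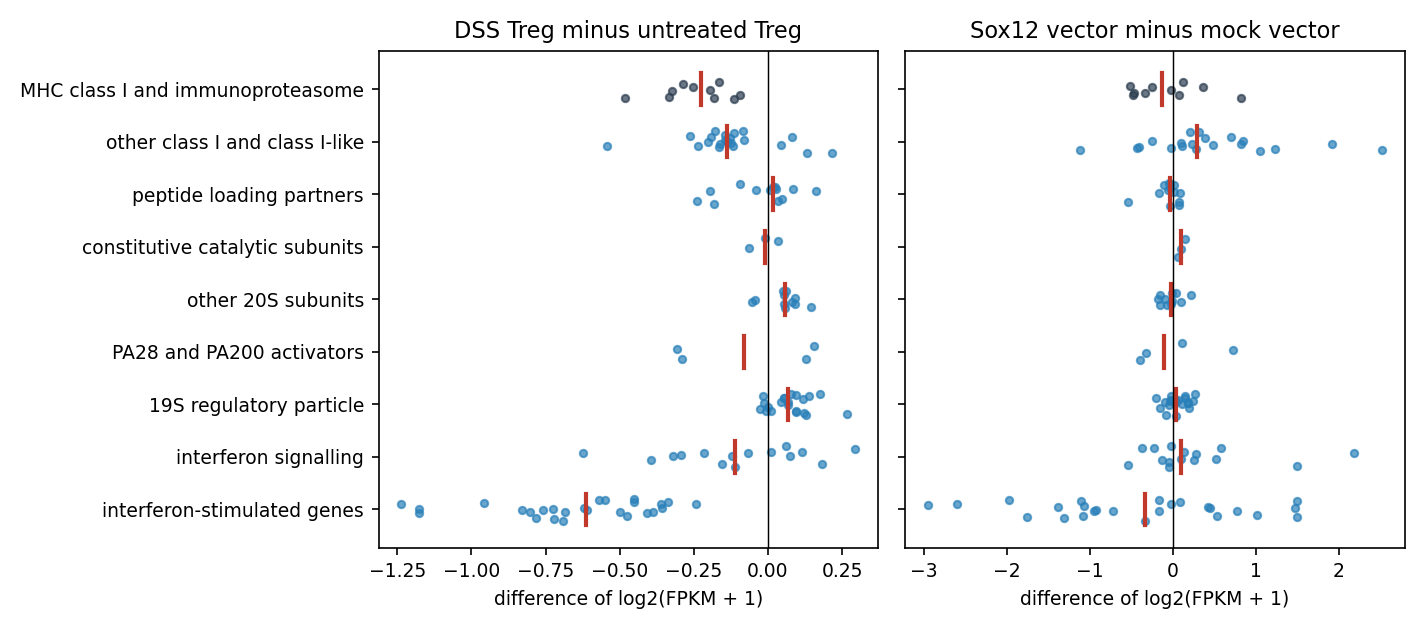
Change of each measured gene (x axis, difference of log2(FPKM + 1), with a different range in each panel) by gene list, with a red line at the median. In DSS Treg the interferon-stimulated genes lie furthest below 0 and the class I and immunoproteasome genes follow, while with the Sox12 vector both lists have members on either side of 0.

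Markers of other cell types moved beside these values. In DSS Treg 11 of 11 erythroid markers were higher, against 66.1% of all genes, summing to 833 FPKM in DSS Treg and 554 FPKM in untreated Treg. The 9 granulocyte and basophil markers of the table, of which all 6 past the filter were higher, summed to 56.4 FPKM in DSS Treg and 27.4 FPKM in untreated Treg. The neutrophil genes S100a8 and S100a9, below the filter, were lower, at 0.678 and 0.449 FPKM in DSS Treg and 1.08 and 1.19 FPKM in untreated Treg. Plasma cell markers summed to 294 FPKM in DSS Treg and 342.5 FPKM in untreated Treg. Markers of NK and CD8 T cells, B cells, and macrophages and dendritic cells summed to 26.7, 9.15 and 17.9 FPKM in DSS Treg and to 31.2, 8.67 and 18.6 FPKM in untreated Treg. With the Sox12 vector 9 of 9 NK and CD8 T cell markers were higher, against 48.9% of all genes, summing to 458 FPKM with it and 153 FPKM with the mock vector. Most of that came from Nkg7, with 215 FPKM with it and 80.0 FPKM with the mock vector, and Prf1, with 135 and 30.3 FPKM. Cd8a had 5.58 FPKM with it and 0.580 FPKM with the mock vector, Cd8b1 7.69 and 4.80 FPKM, and Ncr1 2.49 and 1.19 FPKM. Cd8b1 and Ncr1 were named after their values were seen. Whether these transcripts came from NK or CD8 T cells or from the transduced CD4 T cells was not tested. Erythroid markers summed to 18.9 FPKM with the Sox12 vector and 53.7 FPKM with the mock vector, mostly through Hbb-b1, at 9.27 FPKM with the Sox12 vector and 46.6 FPKM with the mock vector, while Hba-a1 was higher, at 4.23 FPKM with the Sox12 vector and 1.74 FPKM with the mock vector. Plasma cell markers summed to 86.2 FPKM with the Sox12 vector and 147 FPKM with the mock vector, mostly through Xbp1, which other cells express too, at 81.2 FPKM with the Sox12 vector and 145 FPKM with the mock vector. Prdm1 was higher, at 2.95 FPKM with the Sox12 vector and 1.02 FPKM with the mock vector. Of 11 granulocyte and basophil markers, 6 were listed at 0 with the Sox12 vector and 7 with the mock vector. The other lists were low in both vector libraries, with B cell markers at 3.02 FPKM with the Sox12 vector and 2.39 FPKM with the mock vector, and macrophage and dendritic cell markers at 6.94 FPKM with the Sox12 vector and 6.61 FPKM with the mock vector, where Csf1r and Fcgr1 were listed at 0 in both. The part of these cells in the class I and immunoproteasome values was not tested.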

How the data were processed

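The authors deposited linear FPKM per gene for the Treg libraries, with a fold ratio of DSS to untreated, and log2(FPKM + 1) values with a log2 difference for the vector libraries, read from the values and turned back to FPKM here. Cufflinks and mm9 were used, per the submitters' processing notes. For the aligner, annotation and use of strand the sources used here give nothing. RNA was purified with a PureLink kit and libraries were strand-specific (SureSelect), per the labels' protocols. The Treg table lists genes above 1 FPKM in at least 1 library. Rows with a date in place of a symbol, 16 and 25, were left out. The reference is GRCm38, another build, so it gave only lengths, gene order, names and promoter sequence.

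Python 3.11.15, pandas 2.3.3 and scipy 1.17.1 were used. Genes averaging 1 FPKM or more were kept, and no test was run. Vector depth was read from low FPKM of genes with 1 transcript, as the most frequent value that a single fragment would give. That value was held by 23 of 433 genes searched with the Sox12 vector and by 24 of 384 with the mock vector. It gave 45.1 and 42.8 fragments per kb and FPKM, and all fragment counts and counting intervals rest on it. The size of changes and the reading of depth were tested on simulated data, and the other steps were not. Named were the 10 genes and, of each of 19 further lists, the 2 highest in mean and up to 4 with a mean of at least 1 FPKM and a change of at least 1, plus the 5 genes nearest in changes. The genes and lists were chosen with earlier results of these data known. Named outside the rule, after their values were seen, were Psmb5, Psmb6, Psme2, Lnpep, Stat2, Irf1, Irf9, Foxp3, Gbp2, Gbp3, Gbp4, Iigp1, H2-Q6, H2-M3, Psme4, Rfxap, Rfxank, Creb1, Hba-a1, Cd8b1, Ncr1, S100a8 and S100a9 in at least 1 experiment. Some genes the rule takes are not used here.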

Additional observations from a re-analysis of the deposited data

How the results depend on the processing

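All 10 genes were below 0 in DSS Treg under both other pseudocounts and the 3 other scalings. Their median change in DSS Treg, -0.22, was -0.23 with a pseudocount of 0.1, -0.27 with the median change of all genes set to 0, -0.26 with equal 75th percentiles, -0.25 with equal totals without the 20 highest genes and -0.27 without H2-K1 and H2-D1. With the Sox12 vector the median of -0.13 was -0.14, -0.12, -0.17, -0.076 and -0.29 under the same alternatives in that order. Setting the median change to 0 raised the genes lower by at least 0.3 in DSS Treg to 5, and the cause is the shift itself. The difference in immunoproteasome share, -3.36 percentage points for DSS minus untreated Treg and -8.66 for Sox12 minus mock vector, was -3.52 and -5.29 as the mean of the 3 pairs and -4.66 and -10.45 as their median. Over all genes of the Treg table, 231 were lower and 553 higher by at least 0.3. These counts were 354 and 884 with a pseudocount of 0.1, 102 and 187 with a pseudocount of 5, and 350 and 399 with the median change set to 0. With the Sox12 vector B2m reversed to 0.038 with equal totals without the 20 highest genes, and it was the 1 reversal among the 10 genes. No paired analysis was possible because each group has 1 library, and for the same reason no replicate could be left out. The unknown depth of the Treg libraries and near-identical class I copies limit the single values.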

Other observations

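Outside the lists, the 5 genes whose pair of changes (DSS minus untreated Treg, Sox12 minus mock vector) lay nearest to the medians of the 10 genes, among 7167 genes averaging 5 FPKM or more in both tables, were Hsp90ab1, Tmem128, Ly75, Il2rg and Alg12. The measure is a straight-line distance over 2 changes from 4 libraries, and since the 10 genes split with the Sox12 vector their median stands for few of them. Hsp90ab1, a cytosolic chaperone, had 464 FPKM in DSS Treg and 545 FPKM in untreated Treg, and 1358 FPKM with the Sox12 vector and 1475 FPKM with the mock vector. Il2rg, the common gamma chain of cytokine receptors, had 289 FPKM in DSS Treg and 339 FPKM in untreated Treg, and 376 FPKM with the Sox12 vector and 405 FPKM with the mock vector.

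Common reference genes were measured for scale. Actb, beta-actin, had 3279 FPKM in DSS Treg and 3487 FPKM in untreated Treg, and 4701 FPKM with the Sox12 vector and 4703 FPKM with the mock vector. Rplp0 had 914 FPKM in DSS Treg and 1000 FPKM in untreated Treg (change -0.13). It had 1092 FPKM with the Sox12 vector and 1341 FPKM with the mock vector (change -0.30). Of 9 such genes, 6 were lower in DSS Treg (median -0.03) and 9 with the Sox12 vector (median -0.25), or 7 with equal totals without the 20 highest genes. Of all genes, 33.9% were lower in DSS Treg and 51.1% with the Sox12 vector. The changes of the 9 ran from -0.18 to 0.18 in DSS Treg and from -0.59 to -0.0004 with the Sox12 vector. Those of the 10 genes described here ran from -0.48 to -0.09 and from -0.52 to 0.82. Treg markers had medians of -0.06 in DSS Treg and -0.52 with the Sox12 vector, and T cell markers had -0.02 and -0.29.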
